A study of Mus musculus with 2 samples.

Results

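The Notch receptors Notch1, Notch2, Notch3 and Notch4, the ligands Dll4, Jag1 and Jag2, and the target genes Hey1, Hey2 and Heyl were described across the cell types of the mouse heart. These 10 genes were taken by symbol from the 32589 genes counted, and all 10 were found. The data were single-nucleus RNA-seq (snRNA-seq) of hearts from male C57BL/6 mice that were aged 8 weeks when treatment began. There was 1 library for the control group and 1 for the PD-1 inhibitor group. Mice of the PD-1 inhibitor group received an intraperitoneal anti-mouse PD-1 antibody at 5 mg/kg on days 1 and 14 of a cycle of 28 days, and mice of the control group received PBS on those days. In the paper's mouse model, the mice were sacrificed on day 28. No other allele or agent is named for either group. How many hearts went into each library was not given in the sources used here. With 1 library per group, no test between the groups was possible, and treatment and library cannot be told apart. All intervals printed are at 95% and take in counting error alone.

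Notch receptors are membrane proteins that are cut when a ligand on a neighbouring cell binds them, and the freed intracellular part enters the nucleus, where it joins the DNA-binding protein RBPJ and switches on target genes such as those of the HEY family. In blood vessels, the Delta ligand DLL4 and the receptors NOTCH1 and NOTCH4 are known from endothelial cells (ECs), where Notch signalling takes part in arterial identity and in sprouting. NOTCH3 is the receptor known from pericytes and vascular smooth muscle cells, the mural cells that wrap vessels, and JAG1 is a ligand that reaches it from the endothelium.

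The control library held 10197 barcodes and 13177525 unique molecular identifiers (UMIs, each standing for 1 captured RNA molecule), and the PD-1 inhibitor library held 7967 barcodes and 10875248 UMIs. After removal of nuclei with over 20% mitochondrial UMIs and of doublets, 9522 control and 7644 PD-1 inhibitor nuclei remained, with a median of 1012 and 1055 UMIs per nucleus. The libraries shared 48 barcodes. Cell types were rebuilt from clusters and fixed marker lists, so each name below means nuclei like that type. ECs numbered 2815 in the control and 2512 with the PD-1 inhibitor, and the 12 EC markers summed to 10680 and 10611 counts per 1000000 UMIs (CPM) in them. The EC clusters were named arterial, capillary, endocardial, valve-like and lymphatic by their own lists. A venous list named no cluster, so venous ECs, if present, were not separated from the named subtypes. The fibroblast marker Dpep1 had no UMI in fibroblasts, and the lymphatic marker Ccl21a had none in control lymphatic ECs. Notch3, Dll4, Jag2 and Hey1 were among the 2000 variable genes that drove the clustering. When all 10 genes and the other pathway genes were kept out of it, 98.7% of the 5327 EC nuclei kept their subtype. Immediate early genes (Fos, Egr1 and Junb), which respond to handling of tissue among other stimuli, took 0.0755% of EC UMIs in the control and 0.0155% with the PD-1 inhibitor, and their part in the differences below was not tested.

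The 10 genes lie on 6 chromosomes of the GRCm38 build. Of the receptors, Notch1 is at chr2:26457903-26516663 (minus strand), Notch2 at chr3:98013527-98150361 (plus), Notch3 at chr17:32120820-32166852 (minus) and Notch4 at chr17:34564268-34588503 (plus). The ligand genes are Dll4 at chr2:119325784-119335962 (plus), Jag1 at chr2:137081456-137116644 (minus) and Jag2 at chr12:112907819-112929776 (minus). The target genes are Hey1 at chr3:8663359-8667256 (minus), Hey2 at chr10:30832359-30842801 (minus) and Heyl at chr4:123233556-123249875 (plus). Other annotated genes overlap Notch1, Notch2, Notch3, Notch4, Dll4 and Jag2, and whether the counting used strand was not given in the sources used here. Gm17276, on the strand opposite to Notch3, was among the leading genes of a group of cardiomyocyte nuclei, so the low Notch3 values in cardiomyocytes (21.4 and 20.7 CPM) are uncertain.

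RefSeq promoter sequences were at hand for 8 of the 10 genes, all but Hey1 and Heyl. In the 250 bases before the transcription start, the core letters that RBPJ is known to bind, TGGGAA, were searched on both strands (TTCCCA on the other). They were found in 1 of the 8, Hey2, against 21.5% of 27025 promoters of the same length. The Hey2 stretch (GRCm38.p6, chr10:30842784-30843033, minus strand) is shown because Hey2 is the target gene with a match, with the match in capitals beginning at position -207 from the start site. Dll4 (chr2:119325534-119325783, plus strand) is shown beside it as the Delta ligand that differed between the libraries, and it held no match, so it has no capitals. A match describes letters, not binding, and the lack of one says only that these letters are not in this window.
Hey2: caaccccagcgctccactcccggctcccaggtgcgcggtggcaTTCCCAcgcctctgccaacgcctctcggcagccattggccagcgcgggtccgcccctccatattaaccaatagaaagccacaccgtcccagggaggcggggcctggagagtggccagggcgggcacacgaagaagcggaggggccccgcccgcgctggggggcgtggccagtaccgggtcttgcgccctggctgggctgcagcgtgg
Dll4: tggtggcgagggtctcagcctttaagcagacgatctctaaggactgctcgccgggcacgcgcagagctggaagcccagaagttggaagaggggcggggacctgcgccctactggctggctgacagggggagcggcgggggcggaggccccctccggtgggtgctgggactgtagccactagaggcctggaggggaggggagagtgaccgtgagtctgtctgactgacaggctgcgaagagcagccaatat

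Each receptor had its own cell types. Notch1 was highest across the endothelium. Its level in valve-like ECs was 573 CPM (95% Poisson interval 459 to 707, 87 UMIs) in the control and 662 CPM (549 to 792) with the PD-1 inhibitor. Endocardial ECs had 491 and 546 CPM, arterial ECs 490 and 577 CPM, and lymphatic ECs 435 and 412 CPM. In the control these 4 subtypes overlapped with their neighbours in the order. Capillary ECs were lower, with 221 and 259 CPM. The log2 ratio of endocardial over capillary ECs was 1.15 (interval 0.93 to 1.38) in the control and 1.07 (0.84 to 1.32) with the PD-1 inhibitor. Outside the endothelium, Notch1 reached 243 and 307 CPM in pericytes, a level whose interval overlapped that of capillary ECs in both libraries. T cells had 156 and 178 CPM, mononuclear phagocytes (MPs) 137 and 133 CPM, and cardiomyocytes (CMs) 26.8 and 23.6 CPM.

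Notch2 was highest outside the vessels. B cells had 362 CPM (286 to 454) in the control and 277 CPM (174 to 420) with the PD-1 inhibitor, MPs had 295 and 279 CPM, and fibroblasts had 168 and 150 CPM. The B cell and MP intervals overlapped in both libraries. NOTCH2 is known for its role in marginal zone B cells, and no spleen or blood control was analysed here. Among ECs the gene was at 76.5 and 62.9 CPM in endocardial ECs and at 40.4 and 22.7 CPM in capillary ECs. No Notch2 UMI was counted in 95 control or 72 PD-1 inhibitor arterial nuclei, which allows up to 27.7 and 30.3 CPM. Against 38 UMIs in capillary ECs, the arterial zero was lower in the control (interval of the log2 ratio below -0.17), and against 15 UMIs with the PD-1 inhibitor it was not (below 0.90).

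Notch3 was highest in mural cells. In pericytes its level was 1523 CPM (1420 to 1631, 820 UMIs) in the control and 1389 CPM (1273 to 1512, 533 UMIs) with the PD-1 inhibitor. Of all Notch3 UMIs, 67.3% and 66.1% came from pericytes, which held 4.45% and 3.73% of all UMIs. Fibroblasts held 14.0% and 18.7% of the Notch3 UMIs, at 56.9 and 60.8 CPM. Atrial CMs ranked next after smooth muscle, with 84.3 and 118 CPM from only 5 and 10 UMIs. At least 1 Notch3 UMI was found in 64.9% of control and 62.1% of PD-1 inhibitor pericytes, and in 44.4% and 42.6% once each nucleus was thinned to 500 UMIs. In MPs, which should lack the gene, that share was 1.32% and 1.18%, at median depths of 883.5 and 946 UMIs against 965 and 960 in pericytes. Smooth muscle nuclei had 571 and 341 CPM, lower than pericytes by a log2 ratio of -1.41 (-1.77 to -1.08) in the control and -2.00 (-2.63 to -1.48) with the PD-1 inhibitor. ECs had only 9.72 and 10.7 CPM, in 0.853% and 1.04% of nuclei, which is no more than the share in MPs.

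Notch4 followed the arterial side of the endothelium. Arterial ECs had 324 CPM (225 to 450) in the control and 314 CPM (213 to 445) with the PD-1 inhibitor, capillary ECs had 124 and 139 CPM, and endocardial ECs had 56.7 and 70.9 CPM. The log2 ratio of arterial over capillary ECs was 1.40 (0.79 to 1.94) and 1.19 (0.54 to 1.77). Lymphatic ECs had 2 UMIs in each library, and their log2 ratio to capillary ECs was -3.72 (-7.10 to -2.15) and -3.53 (-6.91 to -1.95). Lymphatic ECs thus carried Notch1 at a level near that of endocardial ECs in the control library, and almost no Notch4.

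Among the ligands, Dll4 was highest in arterial, lymphatic and capillary ECs. Its level was 314 CPM (218 to 439) in control and 243 CPM (156 to 361) in PD-1 inhibitor arterial ECs. Lymphatic ECs followed with 193 and 126 CPM, and capillary ECs with 133 and 115 CPM. Endocardial ECs had 53.4 and 41.7 CPM, and pericytes had 52.0 and 44.3 CPM, from 28 and 17 UMIs. Endocardial ECs were below capillary ECs by a log2 ratio of -1.31 (-1.73 to -0.90) and -1.46 (-1.95 to -0.98). Valve-like ECs had 1 Dll4 UMI in the control and 0 with the PD-1 inhibitor. Their Notch1 value ranked first, but its log2 ratio over endocardial ECs was 0.23 (-0.11 to 0.55) in the control and 0.28 (-0.01 to 0.55) with the PD-1 inhibitor.

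Jag1, the Jagged ligand of the arterial wall, was highest in arterial ECs with 721 CPM (570 to 900) in the control and 759 CPM (597 to 951) with the PD-1 inhibitor. Capillary ECs had 71.1 and 66.6 CPM, and the log2 ratio of arterial over capillary was 3.34 (2.85 to 3.83) and 3.50 (2.95 to 4.08). Pericytes had 269 and 284 CPM, so that mural cells carried a ligand together with Notch3. Valve-like ECs had 178 and 193 CPM, above endocardial ECs by a log2 ratio of 1.17 (0.49 to 1.76) and 1.21 (0.62 to 1.73). Fibroblasts held 89.4 and 72.1 CPM.

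Jag2 was highest in arterial and capillary ECs and was near 0 in endocardial ECs. Arterial ECs had 610 CPM (472 to 776, 66 UMIs) in the control and 435 CPM (315 to 586, 43 UMIs) with the PD-1 inhibitor. Capillary ECs had 182 and 145 CPM. Endocardial ECs, the most numerous subtype, had 7 UMIs in each library, which is 4.62 and 4.00 CPM. The log2 ratio of endocardial over capillary ECs was -5.20 (-6.63 to -4.22) and -5.09 (-6.53 to -4.08). Valve-like ECs had no Jag2 UMI in either library, which allows up to 19.8 and 16.6 CPM. Outside ECs, CMs other than atrial ones held 13.2% (control) and 15.3% (PD-1 inhibitor) of Jag2 UMIs. Their level was 19.0 and 16.5 CPM, and they held 19.6% and 18.9% of the UMIs of all genes. When the 10 genes took no part in the clustering, capillary ECs had 192 and 140 CPM of Jag2 and endocardial ECs had 4.59 and 3.97 CPM.

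The 3 HEY genes, transcriptional repressors switched on by Notch, were split between compartments. Hey1 was highest in arterial ECs, with 268 CPM (180 to 385) in the control and 182 CPM (108 to 288) with the PD-1 inhibitor. Endocardial ECs had 64.6 and 48.0 CPM and capillary ECs had 35.0 and 54.5 CPM. The endocardial interval (52.5 to 78.8 CPM) lay above the capillary one (24.1 to 49.2 CPM) in the control, and with the PD-1 inhibitor they overlapped, with a log2 ratio of -0.19 (-0.76 to 0.42). Pericytes had 26.0 and 33.9 CPM of Hey1, from 14 and 13 UMIs, and smooth muscle had no Hey1 UMI in either library.

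Hey2 was found in valve-like ECs, smooth muscle and arterial ECs. Valve-like ECs had 171 CPM (112 to 251) and 215 CPM (153 to 294), above endocardial ECs by a log2 ratio of 3.43 (2.58 to 4.30) and 3.47 (2.77 to 4.18). Smooth muscle had 164 CPM (104 to 246) and 280 CPM (178 to 420), above pericytes by 2.45 (1.48 to 3.48) and 3.69 (2.54 to 5.12). Arterial ECs had 111 and 80.9 CPM. Capillary ECs, which carried Notch1 and Notch4, had 4 Hey2 UMIs in the control and 1 with the PD-1 inhibitor. The promoter printed above is that of this gene.

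Heyl was the HEY gene of pericytes and fibroblasts. Pericytes had 457 CPM (401 to 518) in the control and 485 CPM (417 to 559) with the PD-1 inhibitor, smooth muscle had 164 and 122 CPM, and fibroblasts had 189 and 174 CPM. Fibroblasts held 60.2% and 61.4% of all Heyl UMIs, beside 24.7% and 24.1% of the UMIs of all genes. Within fibroblasts the cluster led by Rgs17 and Cxcl14 had 241 and 229 CPM and the cluster led by Chad and Wif1 had 55.7 and 51.5 CPM. Arterial ECs had no Heyl UMI in either library, which allows up to 27.7 and 30.3 CPM.

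**Figure D1:**
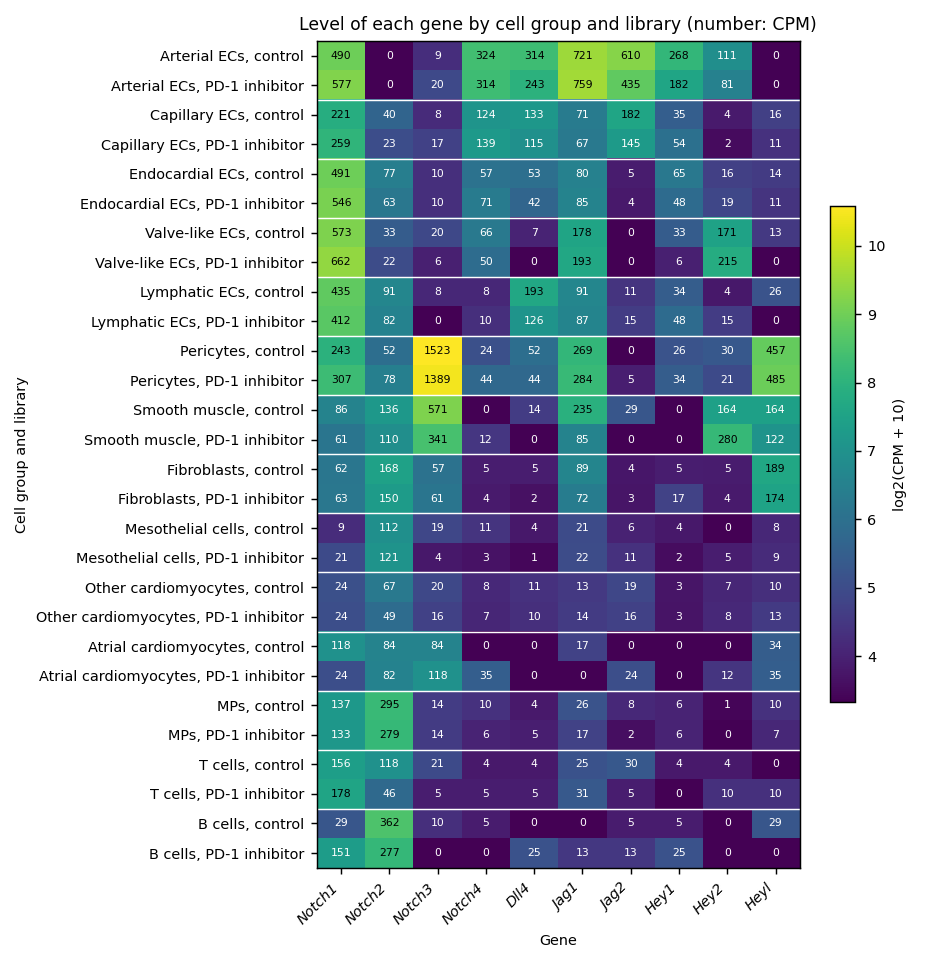
Level of each gene (columns) in each cell group and library (rows), as log2(CPM + 10) in colour with the CPM printed in each field. Colours are to be compared down a column, since levels of different genes are not adjusted for length. Notch3 and Heyl stand out in pericytes, Jag1 and Jag2 in arterial ECs, and Notch2 in MPs and B cells, in both libraries.

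**Figure D2:**
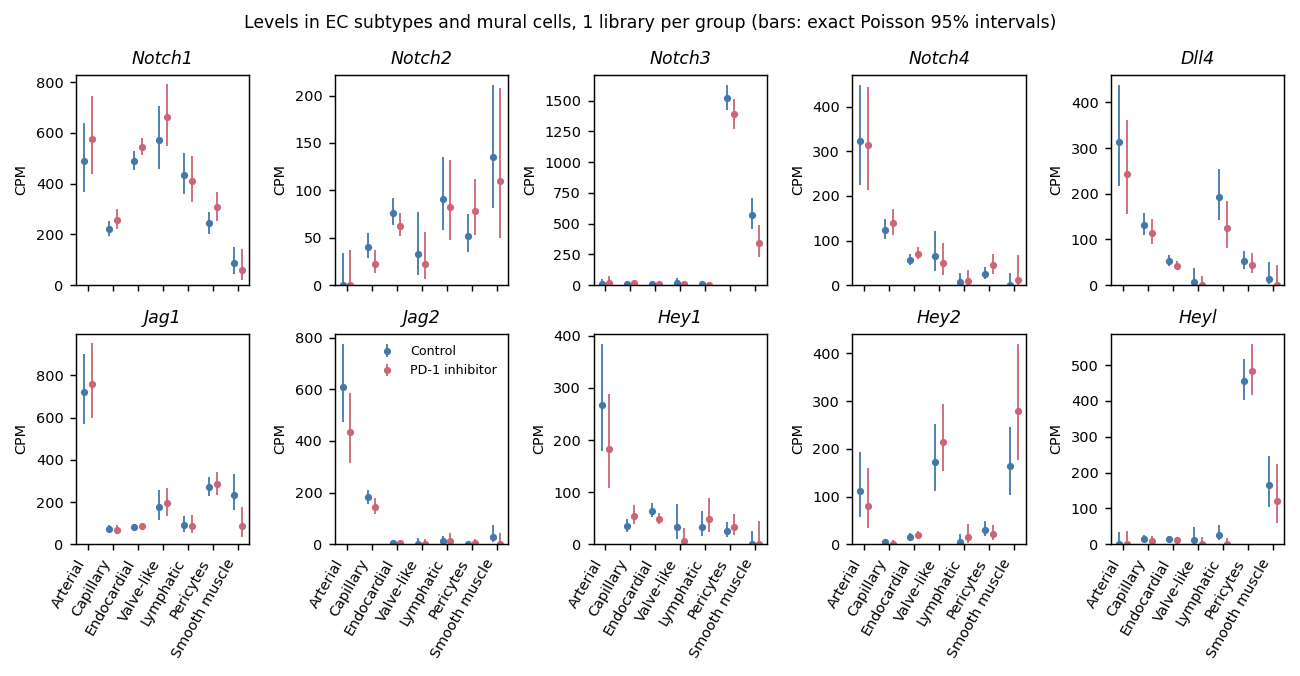
Level in CPM (vertical axis, from 0) of each gene in the 5 EC subtypes, pericytes and smooth muscle. Points are the control (blue) and PD-1 inhibitor (red) libraries and bars are exact Poisson 95% intervals. Jag2 is near 0 in endocardial and valve-like ECs, and Notch4 is near 0 in lymphatic ECs.

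Next, the PD-1 inhibitor library was compared with the control library in ECs, the cells in which most of these genes are found. Notch1 was higher with the PD-1 inhibitor, and the ligands Dll4 and Jag2 were lower. Notch1 had 405 CPM (382 to 428, 1207 UMIs) in control ECs and 479 CPM (454 to 505, 1388 UMIs) in PD-1 inhibitor ECs. The log2 ratio was 0.24 (0.13 to 0.36), above 0 by its counting interval. Dll4 had 97.9 CPM (87.0 to 110, 292 UMIs) and 68.7 CPM (59.5 to 78.9, 199 UMIs), giving a log2 ratio of -0.51 (-0.78 to -0.25). Jag2 had 82.8 CPM (72.8 to 93.8, 247 UMIs) and 51.4 CPM (43.5 to 60.4, 149 UMIs), giving a log2 ratio of -0.69 (-0.99 to -0.39).

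For the other 7 genes the counting interval included 0. Jag1 was at 107 and 110 CPM, with a log2 ratio of 0.05 (-0.18 to 0.28). Notch4 was at 83.8 and 89.1 CPM, with 0.09 (-0.17 to 0.34). Notch2 gave -0.28 (-0.61 to 0.04), Hey1 -0.18 (-0.51 to 0.14) and Hey2 0.38 (-0.09 to 0.87). Heyl gave -0.68 (-1.44 to 0.02) from 45 and 27 UMIs. Notch3, which is at background in ECs, gave 0.14 (-0.64 to 0.92).

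These values have to be read against all genes. Of 10702 genes with at least 50 UMIs in ECs, 8.57% were past a log2 ratio of 0.5 and 6.66% were past -0.5. Of the 10 genes none was past 0.5, and 3 (Dll4, Jag2 and Heyl) were past -0.5. A counting interval wholly above 0 was found for 15.2% of all genes and for 1 of the 10, and one wholly below 0 for 15.0% of all genes and for 2 of the 10. The median log2 ratio of all genes in ECs was 0.01.

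The mix of EC subtypes differed between the libraries. Endocardial nuclei were 49.4% (47.6 to 51.3, exact binomial interval) of control ECs and 59.4% (57.4 to 61.3) of PD-1 inhibitor ECs. Capillary nuclei were 35.0% (33.3 to 36.8) and 27.5% (25.8 to 29.3). Among EC subtypes, Jag2 is all but restricted to the capillary and arterial ones, and Notch1 is higher in endocardial than in capillary ECs. With both libraries set to the same mix of subtypes, the log2 ratio was -0.35 for Jag2, -0.34 for Dll4 and 0.15 for Notch1.

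Within single subtypes the values pointed the same way for Dll4 and Jag2, but no interval left 0. Jag2 gave -0.32 (-0.70 to 0.05) in capillary ECs and -0.48 (-1.08 to 0.09) in arterial ECs. Dll4 gave -0.20 (-0.64 to 0.22) in capillary, -0.36 (-0.83 to 0.12) in endocardial, -0.36 (-1.19 to 0.42) in arterial and -0.60 (-1.35 to 0.10) in lymphatic ECs. Notch1 gave 0.15 (0.01 to 0.29) in endocardial ECs, from 744 and 955 UMIs, and 0.23 (-0.07 to 0.53) in capillary ECs. In lymphatic ECs it gave -0.08 (-0.50 to 0.34). With each nucleus counted at most once, and still divided by total UMIs, the ratio of Notch1 in all ECs was 0.13 (-0.02 to 0.27). That of Dll4 was -0.59 (-0.91 to -0.27) and that of Jag2 -0.51 (-0.89 to -0.15). These ratios are per UMI and do not compare shares of nuclei. A Notch1 UMI was found in 762 of 2815 nuclei in the control library and in 809 of 2512 with the PD-1 inhibitor. That share was thus higher with the PD-1 inhibitor, at median depths of 898 and 951 UMIs. No ratio of these shares was computed.

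Hey1 in arterial ECs, the subtype richest in Dll4 and Jag2, had 29 UMIs in the control and 18 with the PD-1 inhibitor, giving a log2 ratio of -0.54 (-1.49 to 0.34). In capillary ECs it had 33 and 36 UMIs, or a log2 ratio of 0.63 (-0.09 to 1.36). In endocardial ECs it had 98 and 84 UMIs, with -0.43 (-0.87 to 0.01). These Hey1 values had both signs, and none was past its counting error.

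**Figure D3:**
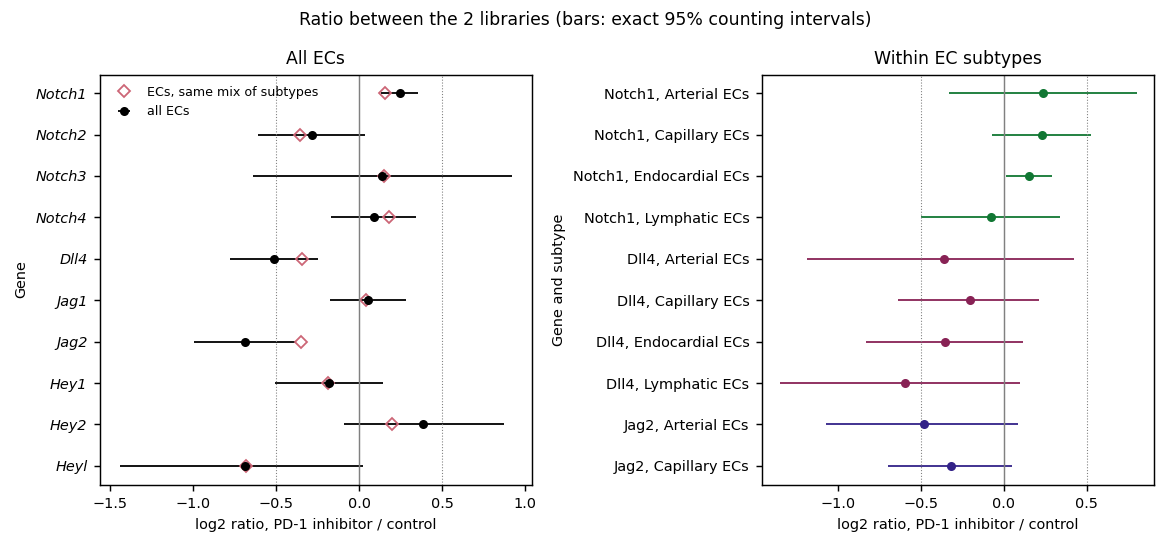
Left, log2 ratio of the PD-1 inhibitor over the control library for each gene in all ECs (black, with exact 95% counting intervals) and with the same mix of subtypes in both libraries (open diamonds). Right, the ratio of Notch1, Dll4 and Jag2 within EC subtypes in which a gene had at least 20 UMIs over both libraries. Dotted lines mark -0.5 and 0.5. Jag2 moves from -0.69 to -0.35 once the mix is the same.

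In mural cells no interval of the 6 genes with at least 50 UMIs left 0. Of 5111 genes with at least 50 UMIs there, 10.7% were past 0.5 and 12.1% past -0.5, and of those 6 Notch and HEY genes none was past either. Notch3 had 900 and 561 UMIs, which is 1326 and 1204 CPM, and a log2 ratio of -0.14 (-0.29 to 0.01). Heyl had 269 and 196 UMIs and a ratio of 0.09 (-0.19 to 0.36). Jag1 had 178 and 116 UMIs and -0.07 (-0.42 to 0.27), and Notch1 had 143 and 123 UMIs and 0.33 (-0.03 to 0.68). Hey2 gave 0.22 (-0.52 to 0.93) and Notch2 0.28 (-0.38 to 0.92). The Hey2 value turned to -0.62 with at least 500 genes per nucleus, where smooth muscle nuclei were not among the mural cells.

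In smooth muscle, with 99 control and 50 PD-1 inhibitor nuclei, Notch3 and Jag1 were lower with the PD-1 inhibitor. Notch3 had 80 and 28 UMIs, or a log2 ratio of -0.73 (-1.42 to -0.11), where 14.9% of the 754 genes with at least 50 UMIs were past 0.5 and 14.6% past -0.5. The share of smooth muscle nuclei with a Notch3 UMI was 33.3% (24.2 to 43.5) and 34.0% (21.2 to 48.8). With each nucleus counted at most once, again over total UMIs, the Notch3 ratio was -0.17 (-1.12 to 0.70). After thinning every nucleus to 500 UMIs the Notch3 ratio was -0.14, at median depths of 961 and 1153.5 UMIs. Jag1 had 33 and 7 UMIs, in 18 and 5 nuclei, with a ratio of -1.39 (-2.89 to -0.26). It was -0.98 (-2.86 to 0.41) with each nucleus counted at most once over total UMIs. Hey2 had 23 UMIs in each library and a ratio of 0.77 (-0.13 to 1.67). Those Jag1 UMIs are fewer than the 50 asked of a gene elsewhere. Immediate early genes took 0.0399% and 0.00487% of smooth muscle UMIs, and their part here was not tested. The 8 smooth muscle markers summed to 14464 and 15428 CPM in these nuclei. In pericytes Notch3 gave -0.13 (-0.29 to 0.03) and Jag1 0.08 (-0.30 to 0.44).

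In fibroblasts Hey1 was higher with the PD-1 inhibitor and Jag1 was lower. Hey1 had 15 UMIs in 12 of 2473 control nuclei and 42 UMIs in 31 of 1969 PD-1 inhibitor nuclei, which is 5.02 CPM (2.81 to 8.28) and 16.9 CPM (12.2 to 22.9). The log2 ratio was 1.72 (0.87 to 2.71), and with each nucleus counted at most once over total UMIs it was 1.60 (0.63 to 2.73). Of 10582 genes with at least 50 UMIs in fibroblasts, 8.34% were past 0.5 and 5.93% past -0.5. Of the 6 Notch and HEY genes with that many, Hey1 was past 0.5 and none past -0.5. Hey1 met the 50 UMIs through its 42 in the PD-1 inhibitor library, where it was high. Its place in this count is therefore no separate support for the difference. Hey1 nuclei were 0.485% (0.251 to 0.846) of control and 1.57% (1.07 to 2.23) of PD-1 inhibitor fibroblasts, and 0.323% and 0.711% after thinning to 500 UMIs. In MPs, taken as a comparison, the shares were 0.331% (0.0901 to 0.844) and 0.471% (0.128 to 1.20). Median depths were 883.5 and 946 UMIs in MPs, against 1044 and 1088 in fibroblasts. Whether MPs express Hey1 themselves was not tested. The intervals of fibroblasts and MPs overlapped in both libraries, though only narrowly with the PD-1 inhibitor. Hey1 levels in fibroblasts and MPs were 5.02 and 6.38 CPM in the control, and 16.9 and 6.35 CPM with the PD-1 inhibitor. Overlap of separate intervals does not show that shares are equal, and no direct ratio of these 2 cell types was computed. Thinned, MPs had 0.165% and 0.235%.

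The added Hey1 UMIs lay in 3 of the 4 fibroblast clusters. The cluster led by Nkain2 and Sntg1 had 1 UMI in the control and 16 with the PD-1 inhibitor, the one led by Cilp and Cd248 had 2 and 13, and the one led by Chad and Wif1 had 0 and 5. The largest cluster, led by Rgs17 and Cxcl14, had 12 and 8 UMIs, or 6.99 and 6.88 CPM. The 12 EC markers summed to 922 and 917 CPM in fibroblasts, 767 and 755 CPM in the Nkain2 cluster and 1070 and 1087 CPM in the Cilp cluster. Immediate early genes took 0.0782% of fibroblast UMIs in the control and 0.0182% with the PD-1 inhibitor, and 0.225% and 0.0149% in the Nkain2 cluster. Their part in the Hey1 difference was not tested.

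**Figure D4:**
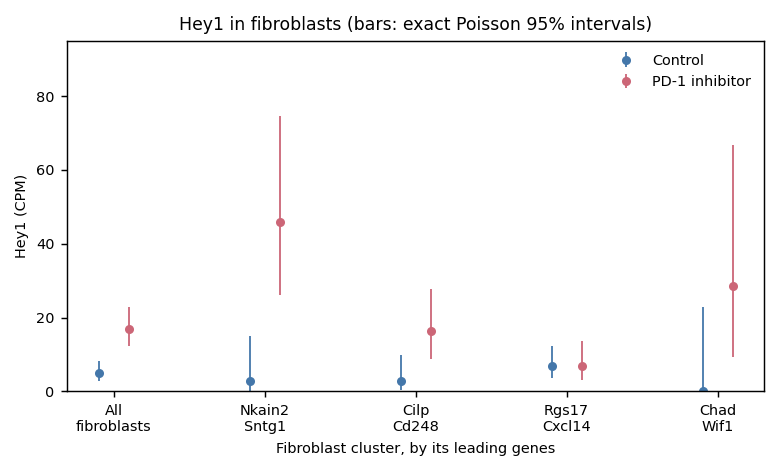
Hey1 level in CPM (vertical axis, from 0) in all fibroblasts and in each fibroblast cluster, named by its leading genes, in the control (blue) and PD-1 inhibitor (red) library, with exact Poisson 95% intervals. The 2 libraries lie together in the Rgs17 cluster (6.99 and 6.88 CPM) and apart in the Nkain2 cluster (2.71 and 45.9 CPM).

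Jag1 in fibroblasts had lower values, with 267 and 179 UMIs, at a log2 ratio of -0.31 (-0.59 to -0.03), and in the Nkain2 cluster it had 38 and 18 UMIs and -0.97 (-1.89 to -0.15). Notch3 in the Nkain2 cluster had 13 and 30 UMIs, with 1.26 (0.31 to 2.35). Mural cell markers in that cluster summed to 339 and 597 CPM, so they moved with Notch3, and their part in it was not tested. Heyl was at -0.12 (-0.30 to 0.06), Notch2 at -0.17 (-0.37 to 0.03), Notch1 at 0.03 (-0.29 to 0.34) and Notch3 at 0.10 (-0.23 to 0.42) in all fibroblasts.

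Across the 16 separate cell groups, 46 pairs of a gene and a group had at least 50 UMIs. The interval was above 0 in 2 of them and below 0 in 3. The pairs above 0 included Hey1 in fibroblasts, which met the 50 UMIs through the library in which it was high. Over all 65516 pairs of any gene and a group with that many UMIs, the interval was above 0 in 11.4% and below 0 in 12.0%. The counts for the 46 pairs are thus no higher than the background. Besides those given above, the only one was Notch2 in CMs other than atrial ones, with 158 and 95 UMIs, at a log2 ratio of -0.45 (-0.83 to -0.07). Some pairs with fewer UMIs also left 0. Beside Jag1 in smooth muscle they were Heyl in lymphatic ECs, with 7 and 0 UMIs, Notch3 in mesothelial cells, with 15 and 4, and 2 in lymphocytes. T cells had 28 and 9 Notch2 UMIs, with -1.32 (-2.64 to -0.25), and B cells had 6 and 12 Notch1 UMIs, with 2.35 (0.88 to 4.10). In B cells those UMIs came from 5 and 6 nuclei, with 5 of the 12 in a single nucleus.

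**Figure D5:**
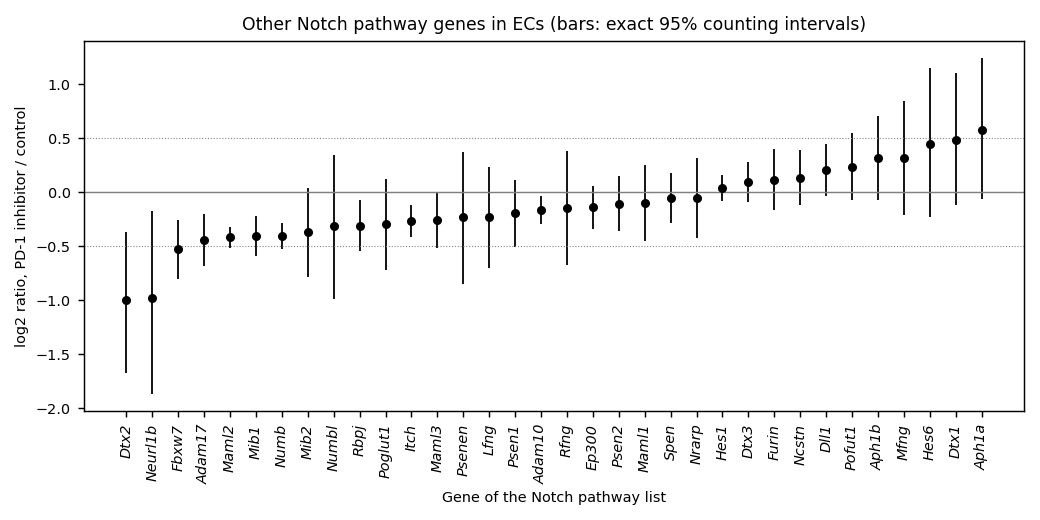
Log2 ratio of the PD-1 inhibitor over the control library in ECs (vertical axis) for the other Notch pathway genes with at least 50 UMIs, in order of the ratio, with exact 95% counting intervals. Dotted lines mark -0.5 and 0.5. Dtx2, Neurl1b and Fbxw7 are below -0.5 and Aph1a is above 0.5.

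The rest of the pathway was examined with a list of 43 genes, of which 34 had at least 50 UMIs in ECs. Their median log2 ratio was -0.15, beside 0.01 for all genes tested. Of the 34, 1 was past 0.5 (Aph1a, a subunit of the gamma-secretase that cuts Notch) and 3 were past -0.5. Those were Neurl1b, which helps ligands to be internalised, with 39 and 19 UMIs and -0.98 (-1.87 to -0.17), Dtx2, a Deltex ubiquitin ligase, with 64 and 31 UMIs and -0.99 (-1.67 to -0.36), and Fbxw7, which marks the Notch intracellular domain for degradation, with 279 and 188 UMIs and -0.53 (-0.80 to -0.26). Over all genes in ECs, 8.57% were past 0.5 and 6.66% past -0.5. The counting interval lay below 0 for 10 of the 34 and above 0 for none, beside 15.0% and 15.2% of all genes.

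The 10 included members of opposite known roles. Rbpj, the DNA-binding partner, gave -0.31 (-0.54 to -0.07), its coactivator Maml2 -0.42 (-0.51 to -0.32), the ligand-activating ligase Mib1 -0.40 (-0.59 to -0.22), and the protease Adam17 -0.44 (-0.68 to -0.20). The inhibitor Numb gave -0.40 (-0.52 to -0.28). The ratio moved with gene length over all genes: the median was 0.22 for the shortest of 5 equal bins of genes by span and -0.17 for the longest. Of the Notch and HEY genes, Hey1 was in the shortest bin and Notch2 in the longest, and relative to genes of their own bin Hey1 was at -0.40, Notch2 at -0.11, Notch1 at 0.30, Dll4 at -0.60 and Jag2 at -0.71, while the median of the pathway genes was -0.13. Further target genes of Notch did not leave 0 in all ECs, with 1056 and 1055 UMIs of Hes1, at 0.04 (-0.08 to 0.17), and 130 and 122 UMIs of Nrarp, at -0.05 (-0.42 to 0.32).

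Within subtypes Hes1 had both signs. It gave 0.39 (0.10 to 0.68) in capillary ECs, from 208 and 191 UMIs, and -0.16 (-0.31 to -0.00) in endocardial ECs, from 685 and 708 UMIs. Dll1, a Delta ligand, gave 0.93 (0.40 to 1.47) in capillary ECs, from 53 and 71 UMIs, and 0.05 (-0.28 to 0.38) in endocardial ECs. In arterial ECs Dll1 gave -0.58 (-1.47 to 0.25), from 33 and 20 UMIs. Of the 43 genes, 26 had enough UMIs in capillary ECs. Dll1 alone was past 0.5 and 7 were past -0.5, beside 12.8% and 10.9% of all genes in capillary ECs. In mural cells 22 of the 43 genes had enough UMIs, 1 was past 0.5 and 7 past -0.5, beside 10.7% and 12.1% of all genes there. The 1 was Hes1, with 139 and 144 UMIs and 0.59 (0.25 to 0.94), and Rbpj was among the 7, with 88 and 37 UMIs and -0.70 (-1.30 to -0.14).

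Finally, the genes whose level over cell groups was most like each of the 10 were listed by Pearson's r of log2(CPM + 10) over 30 points, which are 15 cell groups in 2 libraries and so share libraries and depth. For Notch3 they were Rgs4 (r = 0.92), Klhl23 and S1pr3, and for Heyl they were Aspn (0.94), S1pr3 and Pdgfrb, the receptor that marks pericytes. For Notch4 they were Sox17 (0.90), Samd12 and Adgrl4, for Dll4 they were Cldn5 (0.90), Ldb2 and Ushbp1, and for Jag2 they were Depp1 (0.89), Sema3g and Car7. Notch1 was most like Rgs3 (0.86), Arap3 and Elk3, and Jag1 most like Sox13 (0.86), Arl15 and Gja4. Hey1 was nearest to Ldb2 (0.85), Tmem158 and Tmem44, Hey2 to Npnt (0.82), Actn1 and Hspa1a, and Notch2 to Myo5a (0.83), Bmt2 and Syk. Some of these, namely Sema3g, Sox17, Gja4, Rgs4 and Pdgfrb, were also on the lists that named the cell groups.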

How the data were processed

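Raw UMI counts per gene and nucleus, as deposited by the authors, were used for both libraries (GEXSCOPE kit). The submitters' processing notes name GRCm38 and mm10; the aligner and counter were not given in the sources used here. Nuclei with over 20% mitochondrial UMIs and Scrublet doublets (592 control, 308 PD-1 inhibitor) were removed. Clusters came from 2000 variable genes, 30 principal components and Leiden at resolution 1 (scanpy 1.11.5). A cluster was named where at least 3 of a type's markers were in 5% of its nuclei at over 2 times the level elsewhere. A cluster of cycling nuclei (76 control, 47 PD-1 inhibitor) stayed unnamed. UMIs were summed per cell group and library and given as CPM with exact Poisson intervals. Log2 ratios had 0.5 UMI added to each sum and an exact conditional interval. Where each nucleus was counted at most once, nuclei with a UMI replaced UMIs of the gene, and the divisor stayed the total UMIs of the group. The ratio step was tested on simulated data. Genes entered a count with at least 50 UMIs over both libraries. Coordinates are from GENCODE M21, and 32445 of 32589 gene IDs were found in it.

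Genes named are the 10, the genes of the pathway list and the 3 most similar genes to each of the 10 (among 10929 genes with at least 200 UMIs, in groups with at least 20000 UMIs in each library); marker and leading genes are named where they define a group, and subtype, cluster and cell group values were chosen after they were seen. The members and lists were chosen with earlier results of these data known. Alternatives changed the filters, the clustering, the total, the centring and the mix of subtypes.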

Additional observations from a re-analysis of the deposited data

How the results depend on the processing

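No paired analysis was possible because there was 1 library per group, and for the same reason no replicate could be left out. Over the alternatives run, the EC log2 ratio ranged from 0.15 to 0.30 for Notch1, from -0.60 to -0.34 for Dll4 and from -0.76 to -0.35 for Jag2. The value of -0.35, with the same mix of subtypes, lay outside the counting interval of Jag2. In mural cells Notch2 was 1.01 with at least 500 genes per nucleus and 0.96 after thinning to 500 UMIs, and Hey2 was -0.62 with at least 500 genes per nucleus and -0.63 at Leiden resolution 0.5; under that filter and that resolution smooth muscle nuclei fell outside the mural cells. The number of pathway genes past 0.5 in ECs was 2 with at least 500 genes per nucleus, with doublets kept and after thinning, 3 with the same mix of subtypes, and 0 relative to genes of like length. Alternatives run after the data were seen gave 1.28 to 2.05 for Hey1 in fibroblasts, -0.86 to -0.14 for Notch3 and -1.47 to -1.21 for Jag1 in smooth muscle. Both Hey2 values have the opposite sign to the 0.22 reported and lie below its interval. Of the recomputed ratios and counts, 247 stayed within their counting interval or within 1.5 times the count and 10 did not. Of the recomputed levels, 147 stayed within their interval and 7 did not, among them Notch1 in control valve-like ECs, at 450.5 CPM with at least 500 genes per nucleus. Depth limits the smaller groups: in 72 PD-1 inhibitor arterial nuclei a count of 0 allows up to 30.3 CPM.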
